A study of Mus musculus with 12 samples.

Results

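The comparison described here set 3 arrays of formalin-fixed paraffin-embedded (FFPE) mouse liver against 3 arrays of fresh-frozen (FF) mouse liver, 6 of the 12 arrays of the series. Each FFPE array was paired with the FF array of the same time after death, 0, 3 or 18 h. All 45037 probe sets that were not Affymetrix controls were kept, of 45141 on the array. Of these, 28898 were listed with 1 gene, which gave 17097 genes, 551 with several genes, and 15588 with none.

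All groups were 10-week-old male BALB/c mice with no labelled genetic change. Livers were taken just after death, after 3 h with the body at room temperature, or after 18 h with the body at 4 °C, so time and storage temperature changed together. FF pieces went into RNAlater. FFPE pieces spent 24 h in 10% formalin, were embedded, stood 7 d as blocks at room temperature, and were sectioned at 10 µm. FF RNA was labelled with the GeneChip 3'IVT Express kit and FFPE RNA with the WT-Ovation FFPE system V2 and the Encore Biotin module. Preservation and labelling kit therefore cannot be told apart in any value below, and every "FFPE against FF" difference is a difference of both. There was 1 array for each preservation and time, and the number of animals was not given in the labels. The p-values therefore rest on how far the FFPE minus FF difference varied across the times within each tissue, brain included. That variation may be technical, and it is not a spread among replicate animals of 1 time.

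Formalin joins RNA to protein and to other RNA, and extraction from such blocks yields shortened RNA. A 3' in vitro transcription kit copies RNA from the poly(A) tail, so the stretch nearest the tail is copied first, whereas a whole-transcript kit also primes within the RNA. A probe set reads 1 stretch of a transcript, and several probe sets of a gene may read different stretches. Hepatocytes make up most of the liver and secrete the plasma proteins, and smaller populations line its sinusoids, patrol them or lay down matrix.

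Marker levels matched the labelled tissue in both preservations. The 23 hepatocyte markers tested had a median log2 intensity of 12.39 in FF liver and 12.20 in FFPE liver, against 5.31 in FF brain. The 11 neuron markers had median levels of 3.87 and 4.59 in FF and FFPE liver, against 10.39 in FF brain. Array medians were 4.65 to 4.67 in FF liver and 4.80 to 4.85 in FFPE liver. The spread of log2 levels over probe sets was narrower in the FFPE arrays, with an SD of 1.54 to 1.64 against 1.75 to 1.76 in the FF arrays. The 3 control probe sets for 18S ribosomal RNA, which has no poly(A) tail, lay between 10.29 and 11.87 in FF liver and between 12.05 and 12.94 in FFPE liver, without overlap.

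The levels of most genes differed between FFPE and FF liver. Of 13073 genes tested with 1 probe set each, 9314 (71.2%) passed an adjusted p of 0.05 in limma with Benjamini-Hochberg adjustment. Of these, 3632 (27.8% of those tested) were higher in FFPE and 5682 (43.5%) were lower. At least 2-fold differences among them numbered 1044 higher (7.99%) and 2504 lower (19.2%). At least 8-fold differences were few, 29 higher and 26 lower. The sign was the same in all 3 pairs for 9174 of the 9314 genes called, and for 80.6% of all genes tested. The median gene difference was -0.17 on the log2 scale.

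At the level of probe sets the balance of directions was different. Of 45037 probe sets, 28249 (62.7%) passed, with 14816 (32.9%) higher in FFPE and 13433 (29.8%) lower, and the median difference was 0.04. Among probe sets called, 52.4% were higher, and this share was 37.6% once every array was centred on its own median, which lowered every liver difference by 0.16. Differences of at least 2-fold leaned the other way, with 3683 probe sets higher (8.18%) and 5005 lower (11.1%).

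Direction went with signal level. In the lowest quintile of probe sets by mean level over the 12 arrays, 27.7% were higher in FFPE and 13.1% lower. In the middle quintile 42.5% were higher and 23.9% lower. In the highest quintile the order was turned, with 20.7% higher and 54.9% lower and a median difference of -0.42. Dim probe sets thus leaned upward and bright probe sets downward in FFPE. Since the same arrays gave both the level and the difference, these shares are a description.

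**Figure D1:**
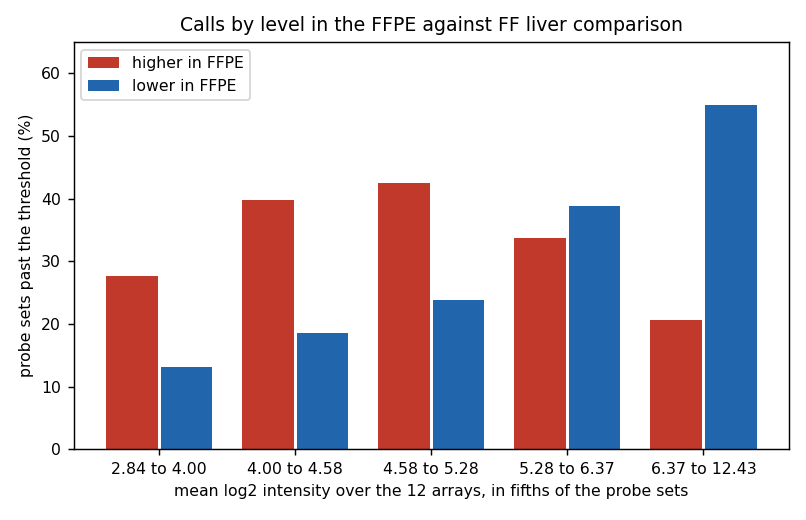
Bars give the percentage of probe sets past the threshold in each quintile of mean log2 intensity over the 12 arrays, higher in FFPE liver in red and lower in blue. The blue bar rises from 13.1% in the lowest quintile to 54.9% in the highest.

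The annotation of a probe set went with the balance too. Probe sets of genes listed as long noncoding RNA, 1413 in all, were higher in 41.0% and lower in 15.4%, at a median FF level of 4.15. Probe sets of protein-coding genes, 27057 in all, were higher in 31.7% and lower in 33.6%, at a median FF level of 4.98. Probe sets with no gene listed were higher in 34.1% and lower in 24.9%. Names ending in _s_at, which can match several transcripts, were lower in 43.1% and higher in 27.3%. Level differed between these classes, and its part in their balance was not tested.

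The 3 pairs of arrays gave similar differences. Probe sets are not independent replicates. Across them, the FFPE minus FF differences of the 0 h and 3 h pairs correlated with Pearson's r = 0.935, those of 0 h and 18 h with 0.896 and those of 3 h and 18 h with 0.917. Within a pair, FF and FFPE levels correlated with r = 0.883 at 0 h, 0.883 at 3 h and 0.842 at 18 h. At least 2-fold differences numbered 3743 higher (8.31%) and 4561 lower (10.1%) at 0 h, and 3686 higher (8.18%) and 4766 lower (10.6%) at 3 h. The 18 h pair had more of both, 4501 higher (9.99%) and 6200 lower (13.8%). With 1 array on each side, no pair has a replicate check of its own.

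The strongest increases were in transcripts of unlike kinds. Malat1, an abundant nuclear long noncoding RNA, read 6.77, 6.83 and 7.60 in FF liver at 0, 3 and 18 h and 12.12, 12.07 and 12.48 in FFPE liver. Every FFPE array lay over 4 log2 units above every FF array. The difference over the 3 liver pairs was 5.16 ± 0.13 (SE of the limma fit, adjusted p = 1.8e-10 in limma), a 35.7-fold higher value. Every ± given here is such an SE. It comes from the fit to all 12 arrays, brain included, and is not the spread of the 3 liver pairs alone. The Malat1 difference was exceeded by 1810014B01Rik, at 5.69 ± 0.19, whose FF values fell from 5.64 at 0 h to 3.90 at 18 h while its FFPE values stayed between 10.20 and 10.68. That rise was seen at 1 of its 3 probe sets. The others differed by -0.04 and -0.20 and did not pass.

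Apob encodes apolipoprotein B, the structural protein of very-low-density lipoprotein, on a very long messenger RNA. It read 8.59, 8.66 and 8.23 in FF and 12.27, 12.22 and 12.11 in FFPE liver. Asgr2, a subunit of the asialoglycoprotein receptor of hepatocytes, read 6.39, 6.44 and 6.43 in FF and 10.19, 9.83 and 10.02 in FFPE, 12.1-fold higher. The groups did not overlap for either gene. Other genes among the 15 largest increases were Selenow (4.43 ± 0.12), a small selenoprotein, Irf2bp2 (4.11 ± 0.15), a transcriptional corepressor, Mocs1 (3.77 ± 0.12), of molybdenum cofactor synthesis, Ido2 (3.74 ± 0.15), of tryptophan breakdown, and Cd2ap (3.60 ± 0.16), an adaptor of the actin cytoskeleton.

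Some of the largest increases were in genes known from other organs. Defa31, a defensin of the intestine, read 5.05, 4.99 and 4.95 in FF liver and 9.96, 9.41 and 9.09 in FFPE liver. Svs5, a seminal vesicle secretory protein, read 3.56, 3.48 and 3.71 in FF and 7.13, 7.05 and 7.67 in FFPE at 1 of its 5 probe sets. Its other probe sets differed by -0.79 to 0.85. The probe sets read here for Defa31 and Svs5 also rose in brain, by 2.75 and 4.03. Of 61 keratin-associated proteins and defensins on the array, 48 did not pass the level filter by gene, and of 78 olfactory and vomeronasal receptors 57 did not. A member could pass that filter through the FFPE arrays alone, so these lists are given over all their probe sets, unfiltered. Of 68 probe sets of keratin-associated proteins and defensins, 27 were higher in FFPE liver and 9 lower (median 0.16), against 32.9% and 29.8% over all probe sets. Of 83 probe sets of olfactory and vomeronasal receptors, 19 were higher and 19 lower (median 0.007).

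The strongest decreases by gene, in Scpep1 and Aif1l, took bright FF signals to near the dim end of the array. Scpep1, a serine carboxypeptidase, read 9.0, 8.95 and 9.34 in FF liver and 4.34, 4.41 and 3.58 in FFPE liver, 31.7-fold lower (-4.99 ± 0.19, adjusted p = 2.3e-09 in limma). Aif1l, an actin-binding relative of allograft inflammatory factor, read 7.58, 7.41 and 7.32 in FF and 3.06, 3.10 and 3.05 in FFPE. The FF and FFPE arrays were separated by over 4 log2 units in both genes. Other large decreases were in Tnrc6a (-3.82 ± 0.17), a partner of Argonaute in microRNA silencing, Sp1 (-3.68 ± 0.13), a GC-box transcription factor, F11r (-3.41 ± 0.11), a tight junction adhesion molecule, Hnrnpdl (-3.36 ± 0.14), an RNA-binding protein, Ampd2 (-3.18 ± 0.17), an AMP deaminase, and Cnot7 (-3.14 ± 0.14), a deadenylase that shortens poly(A) tails. The FFPE means of these other genes ran from 4.59 in Sp1 to 5.95 in Hnrnpdl.

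**Figure D2:**
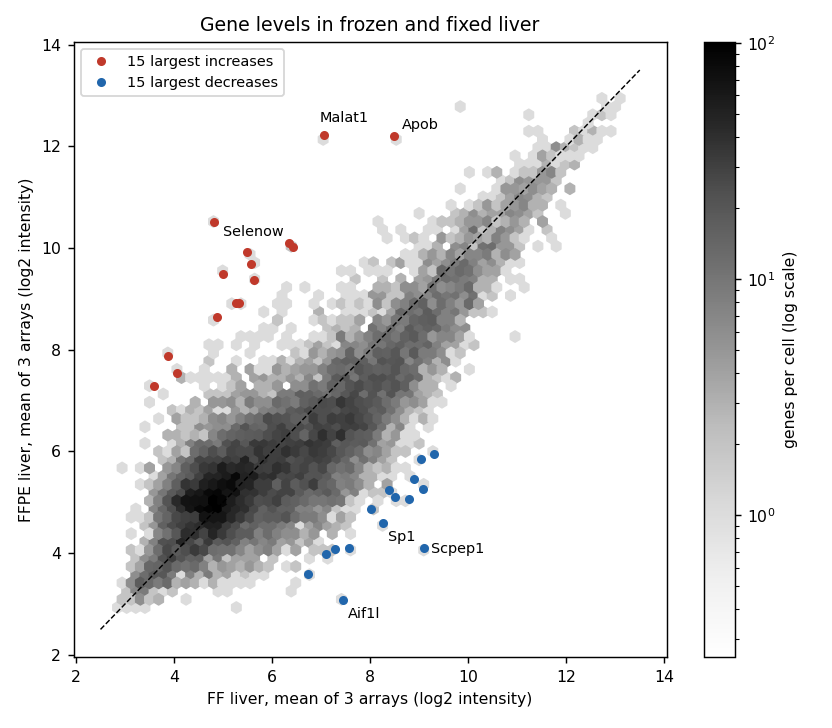
Each grey cell counts genes by their mean log2 intensity in 3 FF liver arrays (horizontal) and 3 FFPE liver arrays (vertical), on a log colour scale; the dashed line marks equal levels. The 15 largest increases (red) and 15 largest decreases (blue) lie far off the line, with Malat1 and Apob at the top and Scpep1 and Aif1l at the bottom, and bright genes lie mostly below it.

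Many of these values belonged to a probe set and not to the gene. Of 7180 genes with at least 2 probe sets, 2261 (31.5%) had probe sets called higher and probe sets called lower in FFPE liver. A further 2172 had calls in the higher direction alone, 2065 in the lower direction alone, and 682 had none. In 485 genes the opposed probe sets both differed at least 2-fold. The share with opposed calls was 18.9% of genes with 2 probe sets, 41.7% with 3 and 63.8% with 4 or more. The median gap between the highest and the lowest difference of a gene was 0.91, and 3329 genes had a gap of at least 1, which is 2-fold.

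Little of the variation in the FFPE minus FF difference lay between genes. Over the 18981 probe sets of these genes the SD of the difference was 0.917, and within genes it was 0.903, so 2.93% of the variance lay between genes. For the difference of FF liver and FF brain, measured with the same probe sets, 60.7% of the variance lay between genes. For the change from 0 to 18 h it was 19.4% in FF liver and 27.4% in FFPE liver. These shares carry no test. The brightest probe set of a gene was lower in FFPE in 42.2% of genes and higher in 27.9%, whereas the other probe sets were lower in 27.1% and higher in 36.6%. Values by gene, which took the brightest probe set, thus leaned further downward than values over all probe sets.

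Among genes with opposed calls, the widest gap was in Hdlbp, which encodes vigilin, an RNA-binding protein. Probe set 1415988_PM_at read 5.28, 4.75 and 4.85 in FF and 10.03, 9.83 and 9.76 in FFPE liver, a rise of 4.91 ± 0.09. Probe set 1419869_PM_s_at read 9.16, 9.32 and 9.24 in FF and 7.78, 7.79 and 7.06 in FFPE, a fall of 1.70 on the log2 scale. The third probe set differed by -0.24 ± 0.09, which under quantile normalization became 0.0017. Within the same 6 arrays, then, 1 probe set of the gene separated the groups upward and another separated them downward.

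Rab2a, a small GTPase of transport between the endoplasmic reticulum and the Golgi, had 6 probe sets, of which 3 rose and 3 fell. The largest rise, 5.13 ± 0.11, took 1419946_PM_s_at from 4.16, 4.27 and 4.15 in FF to 9.18, 9.47 and 9.32 in FFPE liver. The largest fall, in 1419945_PM_s_at, took 9.24, 9.33 and 9.44 to 8.36, 8.56 and 8.35. The smallest of its falls missed the threshold under quantile normalization (-0.20, adjusted p = 0.106 in limma). Cd47, the ligand by which cells restrain phagocytes, had 2 probe sets that rose, by 4.82 ± 0.15 and 2.20 ± 0.17, and 3 that fell, by 0.56 to 1.11, and under quantile normalization the 2 smaller falls missed the threshold.

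Among the 10 widest gaps of genes with opposed calls were also Washc2 of the WASH complex (2.63 and -3.79), Tmsb10, an actin-sequestering thymosin (4.78 and -1.47), Mrpl19 of the mitochondrial ribosome (5.10 and -1.11), the kinase gene Hipk3 (3.74 and -2.23), Ahcyl1, a regulator of inositol trisphosphate receptors (3.51 and -2.00), and the transcription factor genes Sp1 (2.22 and -3.68) and Nfia (3.87 and -1.58). In Nfia 5 probe sets rose and 1 fell; the smallest rise, 1.20 ± 0.43, was 0.48 without the 0 h pair and then missed the threshold. Sp1, listed above among the largest decreases by gene, had 1 probe set that rose and 2 that fell. All these pairs of values come from the fit over probe sets, in which each named probe set passed an adjusted p of 0.05 in limma.

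Liver genes with a central role divided in the same way. Cyp7a1 encodes the rate-limiting enzyme of bile acid synthesis. Its probe set 1422100_PM_at read 5.33, 5.55 and 3.85 in FF and 8.41, 8.63 and 6.45 in FFPE liver at 0, 3 and 18 h, a rise of 2.92 ± 0.12. Its probe set 1438743_PM_at read 8.94, 9.14 and 7.24 in FF and 7.52, 8.27 and 5.56 in FFPE, a fall of 1.32. Both probe sets were lowest at 18 h in both preservations: 18 h minus 0 h came to -1.48 and -1.70 in the FF arrays and to -1.96 for both in the FFPE arrays. The 2 probe sets thus had opposite preservation differences and like time differences.

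Further metabolic genes had opposed probe sets. Got2, the mitochondrial aspartate aminotransferase, had 1 that fell by 0.93 and others that rose by 1.81 ± 0.18 and 0.53 ± 0.12. In Acly, the ATP citrate lyase of fatty acid synthesis, 1 fell by 1.27 and 1 rose by 1.85 ± 0.29. Xbp1, a transcription factor of the unfolded protein response, had values of -1.79, -0.43, -0.10 and 2.34 at its 4 probe sets, of which the third did not pass. Tug1, a long noncoding RNA, had values of -1.89, -1.14 and 3.00, all past the threshold. In the mean of all probe sets of a gene, the direction by gene turned for Cyp7a1 (0.80) and Got2 (0.47), both past the threshold. The values of Acly (0.29), Xbp1 (0.0042) and Tug1 (-0.0089) changed sign too but did not pass.

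Of the 15 largest increases by gene, 7 had at least 2 probe sets and 3 had opposed calls. Of the 15 largest decreases, 11 had at least 2 probe sets and 8 had opposed calls. Those with opposed calls were Irf2bp2, Svs5 and Cd2ap among the increases and included Scpep1, Aif1l, Tnrc6a, Sp1, Hnrnpdl and Cnot7 among the decreases. Scpep1 had a second probe set that rose by 0.38 ± 0.10. In Tnrc6a, by contrast, 8 of 9 probe sets fell, by 0.66 to 3.82, and 1 rose by 0.80 ± 0.10. Car3, a carbonic anhydrase abundant in liver, had 2 bright probe sets with differences of -0.17 ± 0.42 and 0.27 ± 0.17 that did not pass, and 2 others that fell by 3.70 and 2.23. Malat1, Apob and Selenow were each read by 1 probe set with that gene alone, so the values given for them have no second reading.

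**Figure D3:**
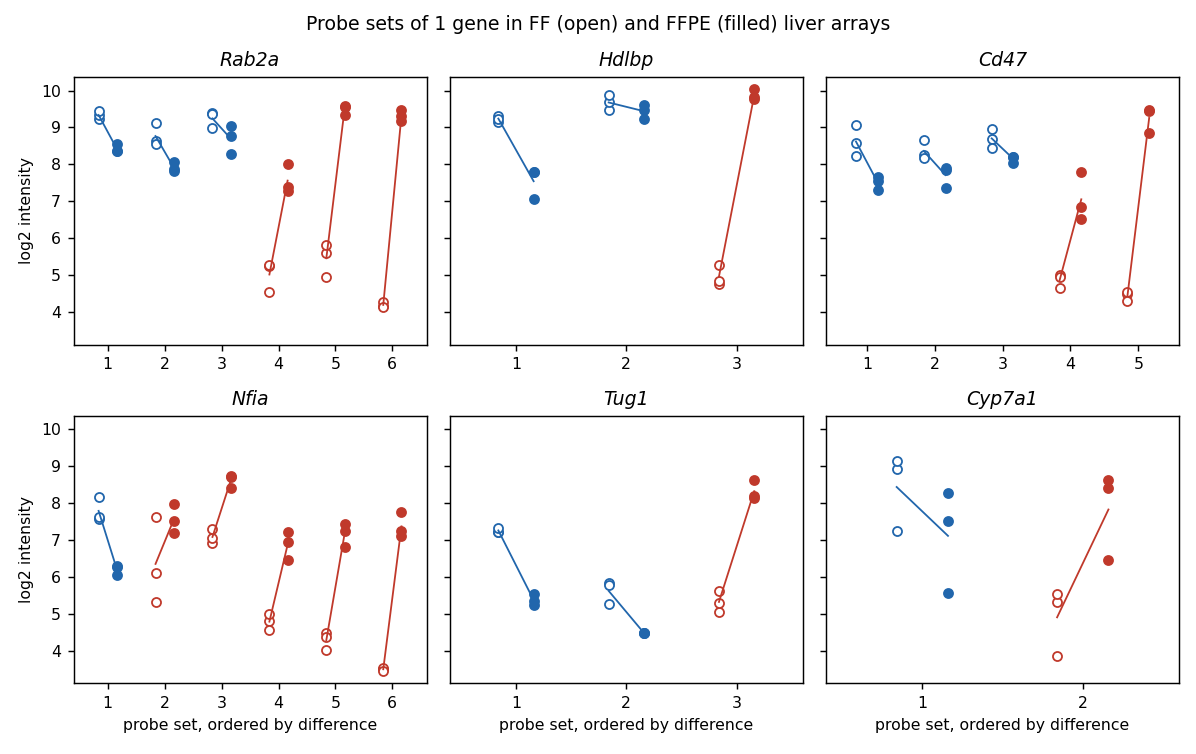
Each panel is 1 gene and each position 1 of its probe sets, ordered by difference, with 3 FF liver arrays as open circles, 3 FFPE liver arrays as filled circles and a line joining their means (log2 intensity). Red probe sets passed the threshold as higher and blue as lower; all 6 genes hold both, and in Cyp7a1 1 array of each group, that of 18 h, lies below the others in both probe sets.

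Alpha globin gives a further case, across a pair of near-identical genes whose probe sets may share transcripts. All 3 probe sets of Hba-a1 fell, by 1.12 to 1.63, and all had their lowest value at 0 h in both preservations. Its brightest read 11.33, 12.41 and 12.25 in FF and 9.66, 11.43 and 10.93 in FFPE liver. The probe set listed for Hba-a2 rose by 3.99 ± 0.16, from 3.89, 3.96 and 3.80 to 8.28, 8.06 and 7.27.

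Abundant hepatocyte transcripts were mostly not called. Of 23 hepatocyte markers tested, 4 were higher, 2 lower and 17 not called, against 71.2% called over all genes, with a median of -0.12. Besides Apob (3.71 ± 0.14), the members past the threshold with the largest differences were Cyp7a1 (-1.32 ± 0.14), Ass1 (0.54 ± 0.13), an enzyme of the urea cycle, and Hnf4a (0.52 ± 0.13), a transcription factor of hepatocytes. Albumin, chosen after its values were seen, had a mean of 13.10 in FF and 12.87 in FFPE (Alb, -0.23 ± 0.35). Many of these genes lay near the highest value of any liver array, 13.44. The part of that upper limit in their small differences was not tested. The SE behind each call came from the fit that included the brain arrays, so a missing call does not measure agreement of the liver arrays. Bright Car3 probe set 1449434_PM_at, for example, did not pass with liver pair differences of -0.21, -0.12 and -0.19 and an SE of 0.42. The part of brain scatter in the 17 missing calls was not tested.

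Markers of Kupffer, stellate and sinusoidal endothelial cells were mostly lower, and those of other nonparenchymal cells were not. Of 12 Kupffer cell markers, those of the resident macrophages, 10 fell and 1 rose, against 43.5% and 27.8% over all genes. Their median difference was -0.97. The complement receptor gene Vsig4 read 8.64, 7.14 and 8.29 in FF and 6.82, 4.50 and 5.42 in FFPE liver, with the 3 h array lowest in both and all FFPE arrays below all FF arrays. C1qa, a chain of complement C1q, read 8.06, 6.73 and 7.67 in FF and 5.76, 4.70 and 4.70 in FFPE. The C1qa fall was not particular to liver. In brain, FFPE minus FF was -3.67 for C1qa and -0.06 for Vsig4, and the median of this list was -0.62. In bulk tissue, fewer cells of a type and less RNA per cell cannot be told apart, and whether FF and FFPE material held the same share of each cell type was not tested.

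Among 22 genes of stellate cells and matrix, 16 fell and 3 rose, with a median of -0.81, and over their 45 probe sets 22 fell and 15 rose, with a median of -0.25. Lum (-2.22 ± 0.15), a small proteoglycan, fell, and Fbln1 (2.27 ± 0.15), a basement membrane protein, rose. Col14a1, a fibril-associated collagen, fell by gene (-2.44 ± 0.13), and of its 3 probe sets 2 fell and 1 rose by 1.59. Of 11 sinusoidal endothelial markers 7 fell and 3 rose, with a median of -0.51, which was -0.03 under quantile normalization. Stab2, a scavenger receptor that clears hyaluronan, read 7.69, 6.72 and 8.31 in FF and 6.12, 5.56 and 6.32 in FFPE. Bmp2, a signal that governs hepcidin, fell by 1.98. These 3 lists sat at FF medians of 6.78 to 7.47, in the range where probe sets leaned downward in general, and the part of level in their values was not tested. Of 8 lymphocyte markers 5 rose and 2 fell (median 0.30), of 5 cholangiocyte markers 2 rose and 1 fell (median 0.22), and of 7 neutrophil markers 3 rose and 3 fell (median 0.07). The FF medians of the latter lists were 4.72 to 4.88. A marker could pass the level filter through the FFPE arrays alone. That filter left out 6 of 14 lymphocyte, 2 of 7 cholangiocyte and 1 of 8 neutrophil markers. Unfiltered, 8 of 18 lymphocyte probe sets rose and 3 fell (median 0.10). Of 14 cholangiocyte probe sets 3 rose and 2 fell (median 0.07), and of 8 neutrophil probe sets 3 rose and 3 fell (median -0.003).

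Genes of hepatocyte metabolism had shares of lower calls near or somewhat above the 43.5% over all genes. Of 37 cytochrome P450 genes of families 1 to 4, 19 fell and 3 rose (median -0.47), and of 39 complement and coagulation genes 20 fell and 6 rose (median -0.34). Examples were Cyp4f13 (-1.68 ± 0.17), Cyp3a44 (1.71 ± 0.14), F7 (-1.84 ± 0.13), the coagulation factor VII gene, and Masp2 (1.08 ± 0.13), a protease of the lectin pathway whose other probe set fell by 0.55. Of 31 phase II conjugation genes 13 fell (41.9%) and 2 rose (median -0.27), with Ugt2b35 at -1.80 ± 0.13. Under quantile normalization 11 fell and 7 rose. Families with near-identical members, P450s and glucuronosyltransferases among them, may share probe sets.

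Of 21 bile acid genes, 10 fell and 4 rose (median -0.34), Cyp8b1, the sterol 12-alpha-hydroxylase, among those that fell (-1.24 ± 0.13). Of 20 urea cycle and amino acid genes 10 fell and 3 rose (median -0.28). Fatty acid oxidation had 11 of 22 lower and 3 higher (median -0.32), with Acadl, a long-chain acyl-CoA dehydrogenase, at -1.49 ± 0.14, and cholesterol and fatty acid synthesis 13 of 25 lower and 3 higher (median -0.29), with the elongase Elovl6 at -1.92 ± 0.14. These medians and shares lie near those over all genes. Under quantile normalization the calls came closer to balance, at 5 lower and 4 higher for both the bile acid and the urea cycle list, 7 and 5 for fatty acid oxidation and 9 and 7 for cholesterol and fatty acid synthesis. Glycolysis and gluconeogenesis had 8 of 22 higher and 8 lower. Its largest values were rises of Pklr (2.43 ± 0.17), the liver pyruvate kinase, and Pfkl (2.03 ± 0.12), the liver phosphofructokinase. Of 3 Pfkl probe sets 2 were called higher, and the lowest difference was 0.02.

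**Figure D4:**
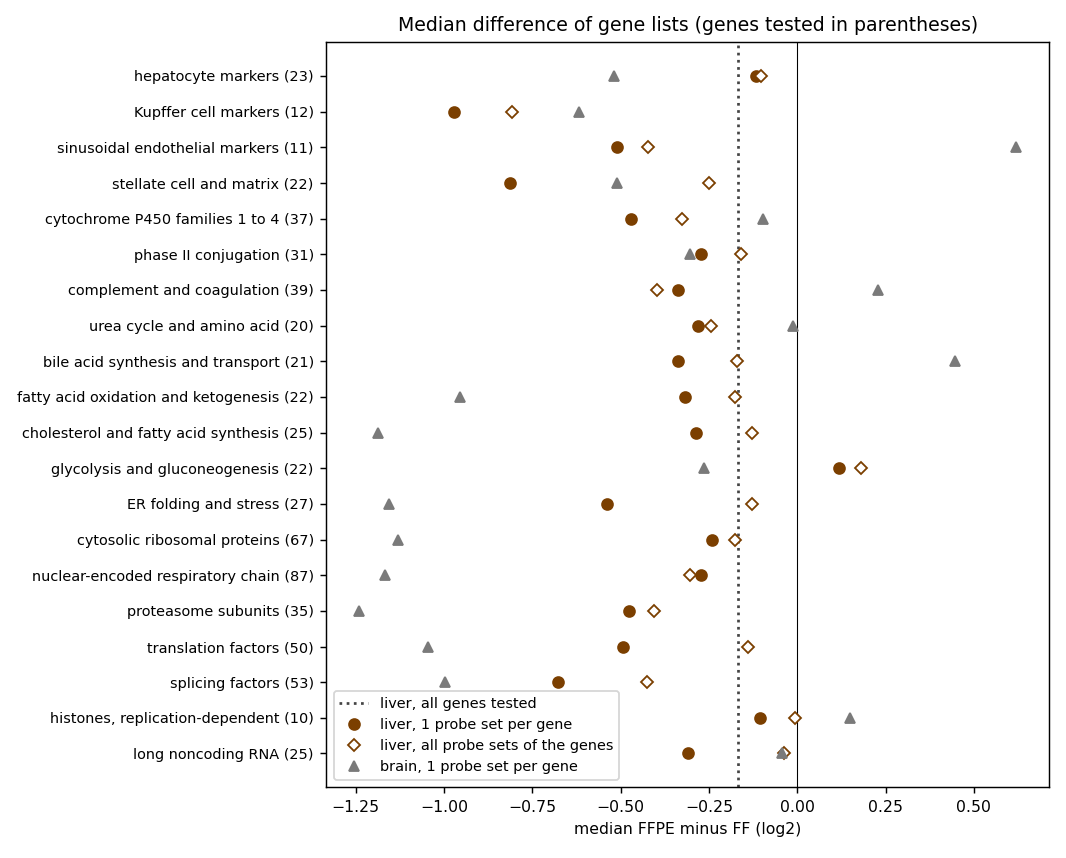
Median FFPE minus FF difference (log2) of each gene list, with the number of genes tested in parentheses: liver with 1 probe set per gene (filled circles), liver over all probe sets of those genes (open diamonds) and brain with 1 probe set per gene (triangles); the dotted line is the liver median over all genes, -0.17. With 1 probe set per gene, Kupffer and stellate lists lie furthest left in liver, and ribosomal, respiratory chain and proteasome genes lie further left in brain than in liver.

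Genes of the large complexes found in every cell were lower in 49.3% to 66.0% of members, against 43.5% over all genes. Of 53 splicing factors 35 fell and 7 rose (median -0.68), with Sf3b4 at -2.86 ± 0.12, Snrnp40 at -2.82 ± 0.16 and Hnrnpab at 2.90 ± 0.12, with 3 of 5 Hnrnpab probe sets higher and 1 lower. The other Snrnp40 probe set differed by 0.19 and did not pass. Of 35 proteasome subunits 22 fell and 4 rose (median -0.48), and of 50 translation factors 28 fell and 7 rose (median -0.49). Psmb7, a catalytic subunit, rose by 1.78 ± 0.11 while Psmd3, of the regulatory particle, fell by 1.79. Under quantile normalization the calls were 22 lower and 11 higher for splicing, 12 and 7 for the proteasome and 19 and 11 for translation.

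Of 67 cytosolic ribosomal protein genes 33 fell and 8 rose (median -0.24). Rps26 read 11.09, 11.09 and 11.01 in FF and 9.65, 9.80 and 8.57 in FFPE liver. Of 87 nuclear-encoded respiratory chain subunits and assembly factors 44 fell and 11 rose (median -0.27), with Ndufb2 of complex I at -1.90 ± 0.12. Both shares lower, 49.3% and 50.6%, lie near that over all genes. Under quantile normalization 36 respiratory chain genes fell and 22 rose. Of 27 genes of endoplasmic reticulum folding and stress 17 fell and 3 rose, with a median of -0.54 by gene and -0.13 over probe sets.

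Ubiquitin ligases of the HECT and large RING kinds differed most between the ways of counting: 12 of 18 genes fell and 4 rose (median -0.64), whereas over their 60 probe sets 27 rose and 22 fell (median 0.14). The balance over the whole array also moved in this direction. Over all genes 43.5% fell and 27.8% rose (median -0.17), and over all probe sets 29.8% fell and 32.9% rose (median 0.04). The part of that general shift in this list was not tested. Under quantile normalization 3 genes fell and 4 rose. Mycbp2, a very large RING ligase, fell by 2.11 at its brightest probe set, and of its 3 others 2 rose, by up to 0.91. Wwp2 rose by 1.47 ± 0.13, and 4 of its 6 probe sets were higher and none lower.

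Histone genes and long noncoding RNAs include transcripts with unusual 3' ends. Replication-dependent histone messenger RNAs end in a stem-loop in place of a tail, and of 10 such genes 4 rose and 5 fell (40.0% and 50.0%, against 27.8% and 43.5% over all genes). A gene could pass the level filter through the FFPE arrays alone, and 6 of 16 such genes did not pass it. Over all 22 of their probe sets, unfiltered, 8 were higher and 7 lower (median -0.007), against 32.9% and 29.8% over all probe sets. The linker histone H1f4 read 3.36, 3.68 and 3.46 in FF and 6.93, 6.86 and 6.84 in FFPE liver, 10.4-fold higher. H3c4 (1.36 ± 0.14) and H3c1 (1.33 ± 0.14) also rose, each at 1 probe set, and their second probe sets differed by -0.16 and -0.01 and did not pass. H4c9 (-1.22) and H1f2 (-0.80), named after their values were seen, fell. Of 8 replacement histone genes, whose messages mostly carry a tail, 5 fell and 1 rose, with Macroh2a1 at -1.95 ± 0.11 and H2az2 at -1.15 ± 0.12. The lists are small and no difference between them was tested. Of 25 long noncoding RNAs chosen by name, 8 rose and 12 fell, with Malat1 the highest value and Meg3, which fell by 2.12, the lowest. Of 10 Meg3 probe sets 4 fell and 2 rose.

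Genes that respond to stress or time of day were given the same counts, against 27.8% higher and 43.5% lower over all genes. Of 18 immediate early genes 2 rose, 6 fell and 10 were not called. Of 11 heat shock and cold genes 5 rose and 4 fell. Hspa1b, an inducible HSP70, read 8.64, 9.56 and 8.87 in FF and 5.44, 7.90 and 5.09 in FFPE liver, highest at 3 h in both. Its pair differences were -3.20, -1.66 and -3.78. Of 16 clock genes 9 fell and 3 rose, and under quantile normalization 6 fell and 5 rose. Per2, a repressor of the clock, fell by gene (-2.03 ± 0.12), whereas its second probe set rose by 1.14. Mt1, a metallothionein, fell by 2.77 at 1 of its 2 probe sets, and the other differed by 0.22 and did not pass.

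The liver and brain differences were alike in direction and larger in brain. In brain 81.8% of genes and 73.4% of probe sets passed the same test. Across genes the FFPE minus FF differences in liver and brain correlated with r = 0.709, and their SD was 0.917 in liver and 1.26 in brain. Of liver gene calls 78.1% were called in brain in the same direction, which is 68.0% of the brain calls, and 799 genes were called in opposite directions. The liver difference was the smaller in size for 69.4% of genes. All 12 arrays were processed to log2 values by the same tools, and the brain arrays had the same kits by preservation.

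The difference itself was tested with a liver minus brain term. Of 13073 genes 7172 (54.9%) passed, 4760 (36.4%) with a value above 0 and 2412 (18.5%) below, where above 0 means that FFPE minus FF was more positive in liver. Over probe sets 40.6% passed. Among the calls 66.4% were above 0, and under quantile normalization 52.3% were. Of the 67 ribosomal protein genes 50 lay above 0 and none below (39 and none under quantile normalization), with medians of -0.24 in liver and -1.13 in brain. The respiratory chain list had 64 of 87 above and 2 below, and the proteasome list 27 of 35 above and 1 below (46 and 5, and 16 and 0, under quantile normalization). Complement and coagulation genes leaned the other way, with 23 of 39 below and 2 above (12 and 4 under quantile normalization), at an FF brain median of 4.24, near the dim end of the array.

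Some of the largest increases in liver differed between the tissues and others did not pass that test. Asgr2 rose by 3.59 in liver and differed by 0.52 in brain, where it was dim (FF mean 4.06), and the liver minus brain value was 3.07 (adjusted p = 9.1e-08 in limma). Mocs1 had a liver minus brain value of 3.02, and Apob of 2.17. By contrast Selenow differed between the tissues by 0.16 (adjusted p = 0.46), and Scpep1 by -0.10 (adjusted p = 0.79). In brain Scpep1 had means of 8.09 in FF and 3.20 in FFPE.

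**Figure D5:**
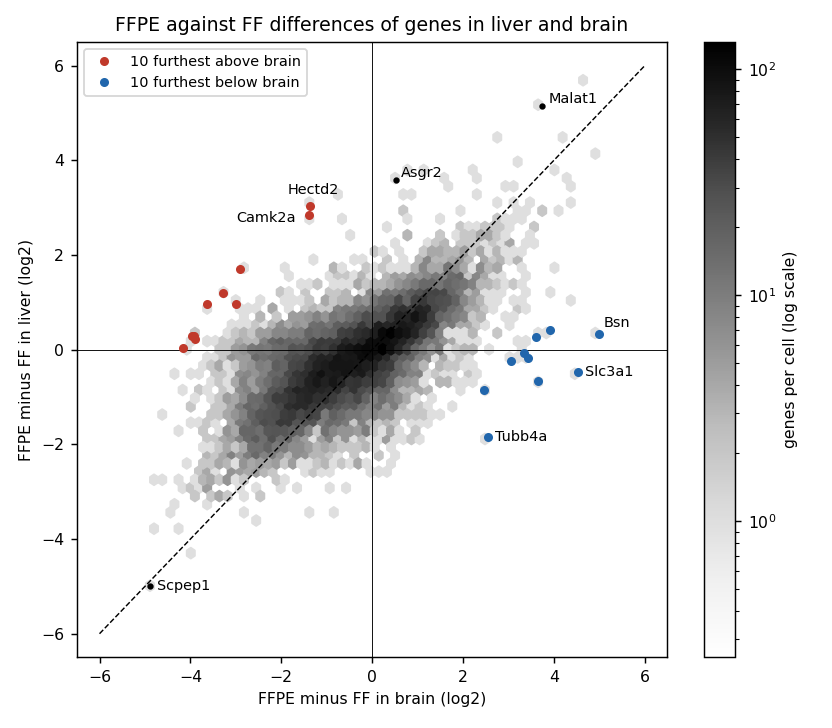
Each grey cell counts genes by their FFPE minus FF difference in brain (horizontal) and liver (vertical), in log2 units on a log colour scale; the dashed line marks equal differences. The cloud is flatter than the line, Scpep1 lies close to it, Malat1 lies above it by 1.42, and the 10 genes furthest above (red) and below (blue) brain lie far from it.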

How the data were processed

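The members and gene lists were chosen with earlier results of these data known. The authors deposited 1 log2 intensity for each probe set and array. The submitters' processing notes name RMA and Affymetrix Expression Console; whether all arrays shared 1 run is not given in the sources used here. Gene names came from GEO's platform annotation (28689 of 28898 single-gene probe sets matched RefSeq by gene ID). The 104 control probe sets were set aside. Differences were tested with limma 3.58.1 in R 4.3.3 on all 12 arrays, with 4 group means and a 3 h and an 18 h term in each tissue (4 residual degrees of freedom), two-sided, with Benjamini-Hochberg adjustment and a threshold of 0.05, after the code was tested on simulated data. Probe sets were unfiltered. Genes took the probe set with the highest mean, if 3 or more of the 12 arrays reached their median there. The time pairing was checked: deviations of same-time FF and FFPE liver arrays correlated by 0.362, 0.329 and 0.448.

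Named genes were the 15 largest increases and decreases with 1 sign in all 3 pairs, the 10 largest by probe set, the 10 widest gaps within genes that had probe sets called both ways, the 10 largest liver minus brain values each way, and up to 4 called members of each list. Alternatives covered scaling, filters, the spread, the time term, the probe set rule and each pair left out. Arrays give no depth, and their number limits the precision.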

Additional observations from a re-analysis of the deposited data

Results flagged for a closer look

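The genes whose FFPE minus FF difference departed most from that of brain, by the liver minus brain term of limma with Benjamini-Hochberg adjustment, included several genes of synapses and neurons. Above brain, the values were 4.61 for Rims2 and 4.61 for C1qtnf4, 4.49 for Cracdl, 4.40 for Hectd2, 4.24 for Fam171a2, 4.23 for Ly6h, 4.22 for Camk2a, 4.20 for Pcdh8, 4.12 for Sox2 and 3.96 for Pgap4. Their adjusted p ranged up to 1.2e-07 in limma. Fam171a2, Pcdh8 and Sox2 lay below the array median in all 6 liver arrays, with FFPE brain means of 4.24, 3.79 and 4.55. The FF brain arrays, with means of 8.19, 7.94 and 8.45, carried them past the level filter. The p-values of these genes are therefore no separate support. In liver itself Hectd2 rose by 3.04, from 4.48, 4.48 and 4.30 in FF to 7.94, 7.39 and 7.06 in FFPE, and Camk2a rose by 2.84, from 4.02, 4.08 and 3.80 to 6.69, 6.73 and 7.00. The other probe set of Hectd2 was called lower in liver (-0.54), and of 4 Rims2 probe sets 1 was called higher and 1 lower. Pcdh8 did not pass in liver, and its value rests on a fall in brain, from 7.94 to 3.79. Sox2 differed by 0.22 in liver, which missed the threshold by gene (adjusted p = 0.092 in limma) and passed by probe set (adjusted p = 0.049 in limma), and it fell by 3.90 in brain. Camk2a, a kinase of synapses, had 6 probe sets, of which 2 rose and 3 fell in liver. The mean of its probe sets gave a liver minus brain value of -0.80.

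Below brain, the values were -4.99 for Slc3a1, -4.67 for Bsn, -4.38 for Tubb4a, -4.31 for Tmem229a, -3.60 for Kif1a, -3.50 for Unc79, -3.41 for Ncam2, -3.33 for Nlgn1, -3.31 for Gfra2 and -3.31 for Gpr158, with adjusted p up to 1.9e-07 in limma. Unc79, Nlgn1 and Gpr158 lay below the array median in all 6 liver arrays, with FF brain means of 3.70, 3.83 and 4.36. The FFPE brain arrays, with means of 7.61, 7.44 and 7.42, carried them past the level filter. Their p-values are therefore no separate support. Slc3a1, a subunit of a cystine transporter, differed little in liver (8.89, 8.88 and 8.80 in FF against 8.63, 8.59 and 7.97 in FFPE) and rose from 4.74 to 9.26 in brain. Its liver difference of -0.46 was -0.28 without the 18 h pair and then missed the threshold. Tubb4a, a neuronal tubulin, fell by 1.83 in liver and rose by 2.55 in brain. Bsn, Ncam2 and Gfra2 each had probe sets called higher and probe sets called lower in liver.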

How the results depend on the processing

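Across 260 named values, 2784 recomputed values under alternatives kept direction and side of the threshold in 2709 cases; 48 kept direction but missed the threshold, 10 newly passed and 17 turned. Turned values under the mean of a gene's probe sets were Kif1a 0.43, Gfra2 0.82, Tug1 -0.0089, Eif4ebp2 1.30, Smurf2 0.43, Trip12 0.80, Cyp7a1 0.80, Syp -1.27, Got2 0.47, Acly 0.29, Xbp1 0.0042 and Camk2a -0.80 (liver minus brain). Of these, Tug1, Acly and Xbp1 did not pass the threshold in the new direction. Under quantile normalization they were Pcdh8 -0.021, Hdlbp 1415987_PM_at 0.0017 and Washc2 1433588_PM_at 0.34, under median centring Pcdh8 -0.12, and without the 3 h pair Ncam2 0.06 (range over pairs left out -0.19 to 0.06). Of 166 recomputed counts 14 moved by over 1.5 times. With the 24802 probe sets above the median alone, fewer features were tested: liver calls were 18560 (8188 higher), brain calls 19890 (8767 higher), liver minus brain calls 11966 (4895 below 0) and genes with opposed probe sets 1473. Quantile normalization left 3141 genes above 0 in the liver minus brain term; the cause was not tested. At 1.5-fold the pairs held 8091 higher and 8372 lower probe sets at 0 h, 8082 and 8725 at 3 h, and 9147 and 9999 at 18 h. Without the time block that pairs the arrays, 14548 probe sets were higher and 12741 lower in liver, and 3401 genes higher and 5280 lower; the fall of Cyp7a1 by gene then missed the threshold (adjusted p = 0.0534 in limma). Leaving out each pair gave 24463 to 25611 probe sets and 8443 to 8820 genes.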

Other observations

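The Affymetrix controls placed along Gapdh and Actb gave values by position. The 5' control of Actb was higher in FFPE, at 10.99, 10.52 and 10.84 against 10.23, 9.03 and 9.55 in FF. Its 3' control went the other way, at 11.32, 11.03 and 11.45 on FF arrays against 10.87, 10.51 and 10.66 on FFPE arrays. The 3' control of Gapdh was higher in FFPE at 11.65, 11.68 and 11.80, against 11.20, 11.14 and 11.43 in FF. The 5' control of Gapdh was lower in FFPE in each pair, at 10.61, 10.05 and 10.03 against 11.17, 10.32 and 10.29. Of the 100 genes highest in FF liver, 72 were among the 100 highest in FFPE liver.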
